A study of Arabidopsis thaliana with 4 samples.

Results

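MicroRNA genes of Arabidopsis thaliana were followed through 4 lists of TRB1 peaks. They are the 326 genes of chromosomes 1 to 5 that a RefSeq gene table classes as microRNA genes, out of 37899 genes in all on those chromosomes, and they are from 59 to 689 bp long, with a median of 144.5 bp. By the number in their symbols they form 215 families, of which 166 have 1 gene, 28 have 2 and 21 have 3 or more. A gene was called bound in a list when a peak of that list overlapped it by 1 bp or more.

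TRB1 binds telomeric repeats through a Myb-type domain, and its binding along the chromosomes was mapped by chromatin immunoprecipitation and sequencing in Arabidopsis seedlings aged 14 days. The TRB1pro:TRB1-GFP line (TRB1 fused to green fluorescent protein, GFP, and driven by the TRB1 promoter) was captured with the GFP-Trap A matrix, and wild-type seedlings (Wt) on the same matrix were its control. The other approach used the anti-TRB1 (5.2) antibody on Wt seedlings, with Wt chromatin without that antibody as its control. Each of these 4 groups had 1 library, so no value here has a spread between plants and no test between groups was possible.

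A plant microRNA gene is transcribed into a long precursor that folds into a hairpin. The nuclear enzyme DCL1, with its partners HYL1 and SE, cuts the hairpin to a short duplex, HEN1 methylates the duplex, and AGO1, or for a few microRNAs a related protein, uses the mature strand to cut or repress messages of matching sequence. Families with the oldest histories mostly act on messages of transcription factors, auxin signalling proteins or nutrient transporters, and many families with a single gene arose recently. Mature sequences, hairpins and promoters were not used here, so genes are grouped by symbol.

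The replicate 1 and replicate 2 lists come from separate peak calls, but the sources used here do not say which approach gave which list. A PePr list was called with a program for replicated libraries, and the genomic list is the stretch that the other 3 lists share. The lists hold 3975, 7480, 24219 and 4995 peaks and cover 8.16%, 12.9%, 13.7% and 3.96% of the chromosomes. The numbers of reads are not given, so a longer list may reflect deeper sequencing or a looser threshold, which cannot be told apart.

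TRB1 peaks covered a minority of the microRNA genes, and no list reached them more often than it reached genes at large. The replicate 1 list had a peak at 43 of the 326 genes (13.2%, exact Clopper-Pearson 95% interval 9.71 to 17.4), where 19.0% of all other genes and 13.9% of other genes of 59 to 689 bp were bound. The replicate 2 list had one at 69 genes (21.2%, 16.9 to 26.0), against 31.7% of all other genes and 20.1% of those of the same length range. The PePr list reached 57 genes (17.5%, 13.5 to 22.1), against 50.7% and 28.0%. The genomic list reached 23 genes (7.06%, 4.52 to 10.4), against 14.4% and 8.65%. A long gene is more easily touched by a peak than a short one, so the genes of the same length range are the closer comparison. Lengths are not matched within that range. Its protein-coding genes (median 477.0 bp) and long non-coding RNA genes (312.0 bp) are longer than the microRNA genes (144.5 bp), and its transfer RNA genes (73.0 bp) are shorter. Against the genes of this range the share of microRNA genes was near the background in the replicate 1, replicate 2 and genomic lists. It was lower in the PePr list, where the interval did not reach the background. How far the difference in length bears on that was not tested. All intervals here cover counting error over genes only.

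Set beside single classes of the same length range, microRNA genes had shares in the genomic list close to those of short protein-coding and long non-coding genes. In the genomic list 7.35% of 2259 short protein-coding genes and 7.35% of 2964 long non-coding RNA genes were bound, against 7.06% of microRNA genes. Transfer RNA genes, which are shorter still at a median of 73.0 bp, were bound at 14.9% of 625. Genes of small nucleolar RNAs, which guide the modification of ribosomal RNA, were bound at 41.7% of 278 (exact 95% interval 35.9 to 47.8), whose interval lies above that of the microRNA genes. In the PePr list 17.5% of microRNA genes were bound. There the share was 25.4% for short protein-coding genes, 29.8% for long non-coding genes, 44.8% for transfer RNA genes and 51.8% for small nucleolar RNA genes. Genes that lie close together can share a peak, and the differences between classes were not tested.

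**Figure D1:**
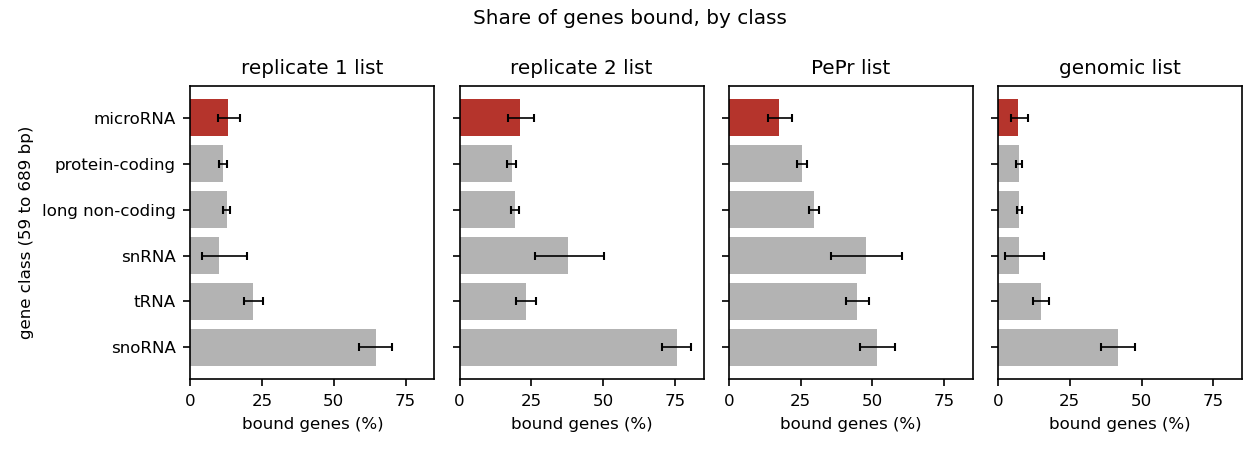
Share of genes bound (percent, horizontal axis) for 6 gene classes of 59 to 689 bp in the 4 peak lists, with bars for the share and lines for the exact 95% interval over genes. The microRNA genes (red) sit near the protein-coding and long non-coding genes in the replicate 1, replicate 2 and genomic lists, and have the lowest of the 6 shares in the PePr list, at 17.5%.

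The shares were also read against windows of the same lengths laid at every position of the chromosomes. Such windows would touch a peak of the replicate 1 list at 8.74% of positions, the replicate 2 list at 14.0%, the PePr list at 17.2% and the genomic list at 4.67%. MicroRNA genes were therefore bound 1.51, 1.52, 1.02 and 1.51 times as often as a window at any position. Other genes of the same length range also lay above the windows, at 13.9%, 20.1%, 28.0% and 8.65%. An excess over windows was thus not particular to microRNA genes.

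PePr peaks often lay beside microRNA genes and not on them. The reach was then widened from the gene itself to 500 bp on either side. The PePr count rose from 57 to 129 genes, or from 17.5% to 39.6%. Over the same step other genes of the same length range rose from 28.0% to 43.3%, and windows from 17.2% to 33.1%. In the replicate 1 list the count rose from 43 to 50 genes (15.3%, against 16.2% of other genes of the same length range). In the replicate 2 list it rose from 69 to 90 (27.6%, against 25.2%) and in the genomic list from 23 to 38 (11.7%, against 12.4%). Within 1000 bp the PePr list reached 171 microRNA genes (52.5%), close to the 52.2% of other genes of the same length range. The PePr peaks are the narrowest of the deposited lists, with a median of 510 bp against 2081 bp in replicate 1 and 1728 bp in replicate 2.

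**Figure D2:**
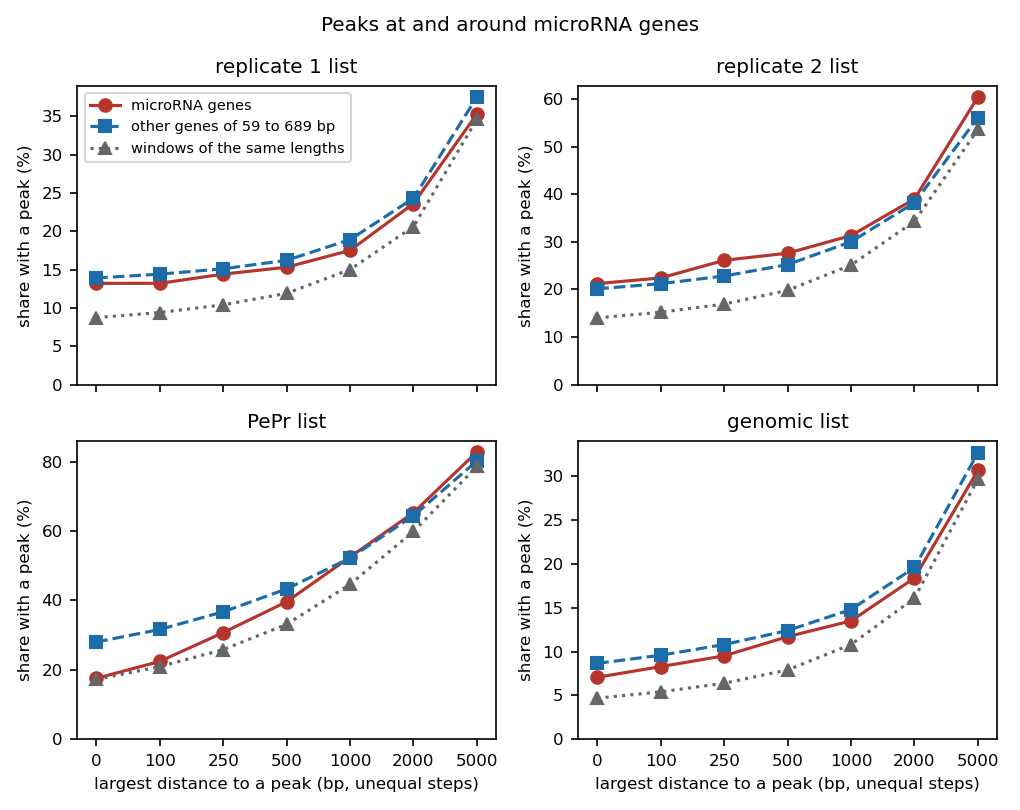
Share of genes with a peak (percent, vertical axis) within a growing distance of the gene (bp, horizontal axis with unequal steps) for the 326 microRNA genes, other genes of 59 to 689 bp and windows of the same lengths, one panel per list. In the PePr panel the microRNA genes start with the windows, at 17.5% and 17.2%, and meet the other genes at 1000 bp, at 52.5% and 52.2%.

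In all, 97 of the 326 genes were bound in at least 1 of the replicate 1, replicate 2 and PePr lists, and 229 in none. Of the 97, 48 were bound in 1 list, 26 in 2 and 23 in all 3, and those 23 are the genes of the genomic list. The same counts were not made over other genes, so these have no background beside them. The replicate lists had 33 genes in common, which is 76.7% of the 43 in replicate 1 and 47.8% of the 69 in replicate 2. For other genes of the same length range the corresponding shares were 83.2% and 57.7%. Of the 33 genes in both replicate lists 23 (69.7%) were in the genomic list, against 74.8% of other genes of the same length range. The PePr list held 55.8% of the replicate 1 genes and 55.1% of the replicate 2 genes, against 70.0% and 68.7%. In the other direction, 42.1% and 66.7% of the PePr genes were in replicate 1 and replicate 2, against 34.8% and 49.3%. These differences were not tested.

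The overlap rule separates near neighbours. The smallest overlap in the genomic list was that of MIR4227, at 11 bp, and the nearest gene outside was MIR825, 10 bp from a peak. In the PePr list MIR8169 was the last gene inside, with 5 bp under a peak, and MIR5635b the first outside, at a gap of 8 bp. Of the 23 genes of the genomic list 17 lay wholly under a peak.

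Of these 23 genes 5 had a genomic list peak with no protein-coding gene under it and none with an end within 500 bp. They were MIR161, MIR168a, MIR172b, MIR858a and MIR4228, and in these the centre of the peak lay from 17.5 to 283 bp from the centre of the microRNA gene. For the 10 genes whose peak also reached a neighbouring protein-coding gene the distance ran from 139.5 to 920 bp. The lists give no strand, so whether a peak lies before or after a microRNA gene was not determined.

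MIR168a (AT4G19395) encodes the microRNA that acts on the message of AGO1, the main effector of plant microRNAs. Its genomic list peak ran from 10577911 to 10578930 of chromosome 4 and was centred 283 bp from the middle of the gene. The replicate 1 and replicate 2 peaks were centred 56.5 and 35.5 bp from that point. Both replicate peaks, which were wider, lay within 500 bp of an end of AT4G19390. In the authors' deposited lists these peaks had scores of 2500.05 and 1081, and the PePr p-value was 2.7e-20. The other gene of the family, MIR168b (AT5G45307), was bound in the replicate 2 list with a score of 1049 and in the PePr list with a peak at 18358301 to 18359150 of chromosome 5, and was not bound in the replicate 1 list. Its replicate 2 peak also reached AT5G45310. MIR168 was thus the only listed family of the pathway's own regulators with a gene in the genomic list.

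MIR172b (AT5G04275) belongs to the family that represses AP2-like transcription factors and so promotes flowering and the adult phase. Its peak lay at 1187791 to 1188980 of chromosome 5, and the nearest protein-coding gene was 3344 bp from MIR172b. The authors' scores were 1292 in replicate 1 and 1130 in replicate 2, and the PePr p-value was 7.7e-14. MIR172d was bound in the replicate 2 list (score 2152) and in the PePr list, and MIR172a, MIR172c and MIR172e in none of the lists.

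The products of MIR161 (AT1G48267) act on messages of pentatricopeptide repeat proteins of organelle RNA processing. Its genomic list peak, at 17825181 to 17826326 of chromosome 1, was centred 17.5 bp from the centre of the gene. The replicate 1 and replicate 2 peaks were centred 202.0 and 223.5 bp from the centre of MIR161, and both scored 3100. The PePr p-value of MIR161 was 3.8e-28. The nearest protein-coding gene, GCR1, lay 2096 bp from MIR161. MIR161 was among 8 of the 23 genes with a score of 3100 in both replicate lists, a value that many peaks share, so no order among those genes is read from it.

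MIR858a (AT1G71002), from a family that acts on MYB factors of flavonoid synthesis, had the weakest scores of these 5. Its genomic list peak lay at 26773301 to 26773810 of chromosome 1, its authors' scores were 934.5 and 168.36 and its PePr p-value 5.6e-08. MIR858b, its neighbour, was bound in the PePr list, and it was the unbound gene nearest to a replicate 1 peak, at 134 bp. MIR4228 (peak at 28888611 to 28889800 of chromosome 1) scored 3100 in both replicate lists, with a PePr p-value of 6.8e-29. Its replicate 2 peak also overlapped the protein-coding gene AT1G76910, and its replicate 1 peak lay within 500 bp of an end of that gene.

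**Figure D3:**
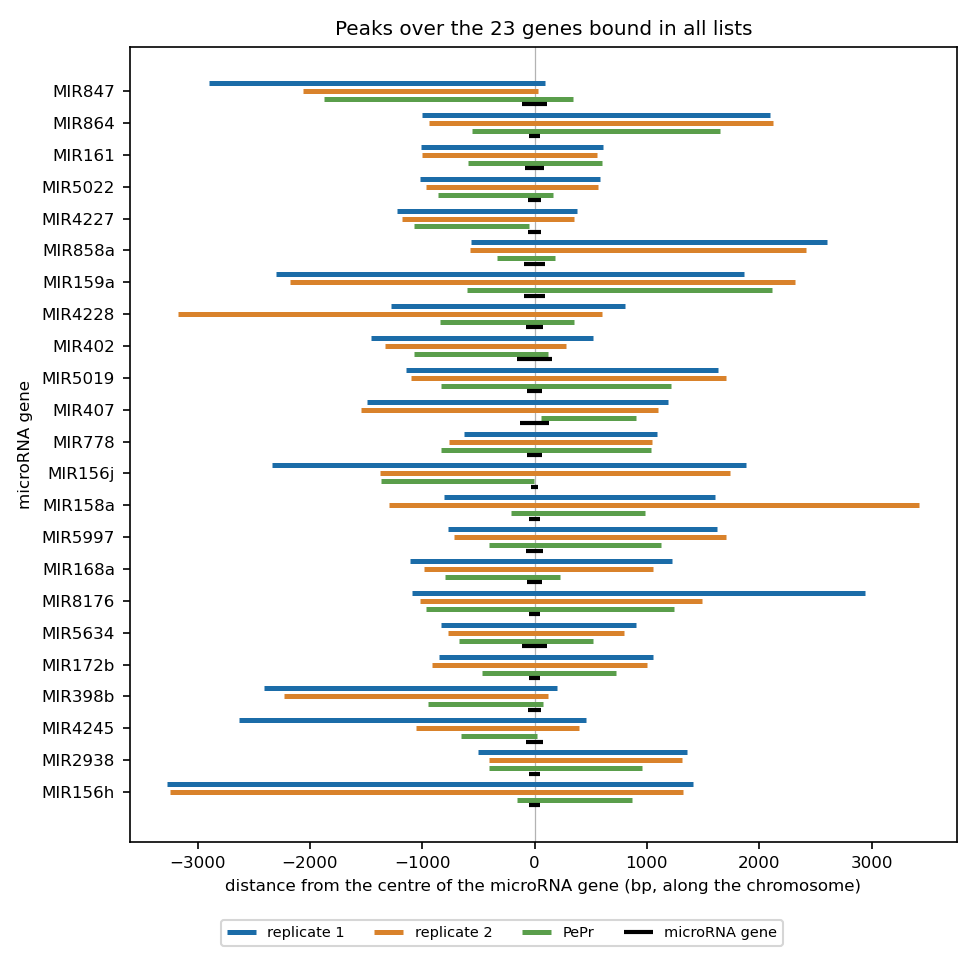
Extent of the replicate 1, replicate 2 and PePr peaks (coloured bars) over each of the 23 microRNA genes bound in all lists (black bars), as distance in bp from the centre of the gene along the chromosome; where several peaks of a list touch a gene the one with the strongest value is drawn. The genomic list peak of MIR161 lies 17.5 bp from the centre of the gene, and PePr peaks cover only 9.09% of MIR4227, 29.28% of MIR407 and 45.59% of MIR156j.

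Overlap alone assigns no peak to a gene. The other genomic list peaks also had a protein-coding gene under them or an end of one within 500 bp. MIR156h (AT5G55835) had no protein-coding gene under its genomic list peak (22596911 to 22597930 of chromosome 5), but the ends of AT5G55830 and AT5G55840 lay within 500 bp. Its scores were 928.5 and 1319, and its PePr p-value was 2.9e-14. MIR5022 and MIR4227 shared 1 peak with HAP13, a clathrin adaptor subunit, at 22371661 to 22372680 of chromosome 1. Only 9.09% of MIR4227 lay under it, while MIR5022 was covered in full.

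MIR159a (AT1G73687), which restrains GAMYB-like factors in vegetative tissue, lay under a peak that also reached CDKD1;1, a cyclin-dependent kinase gene, from 27712721 to 27715192 of chromosome 1. It scored 3100 in both replicate lists, with a PePr p-value of 5.7e-30. MIR158a (AT3G10745) lay under a peak at 3366171 to 3367360 of chromosome 3 that also reached AT3G10750, and scored 3100 in both replicate lists, with a PePr p-value of 3.0e-22. MIR407 shared its peak with LUH, which encodes a transcriptional corepressor, and 29.28% of the gene lay under the peak. MIR847, which acts on the auxin repressor IAA28, shared its peak with AT1G07050, and its scores were 939 and 441. The remaining genes with peaks of this kind were MIR864, MIR5019, MIR5997 and MIR8176, with PePr p-values from 1.4e-45 at MIR864 to 2.2e-26 at MIR5997.

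In 7 cases the microRNA gene itself overlapped a protein-coding gene. MIR156j lay inside SPL9, a target of its own family, and both were called bound from the same peak (17587691 to 17589050 of chromosome 2), which covered 45.59% of MIR156j. The scores were 1670 and 778 and the PePr p-value 1.2e-14. MIR398b (AT5G14545), which lowers copper/zinc superoxide dismutases when copper is scarce, overlapped AT5G14550 and had scores of 771 and 368, with its peak at 4690131 to 4691150 of chromosome 5. MIR402, which acts on a DNA demethylase of the ROS1 kind, lay in AT1G77230 and had scores of 1489 and 1374. MIR778, which acts on histone methyltransferase genes of the SUVH group, lay in AT2G41620 and had scores of 787 and 2006. The others were MIR5634, MIR4245 and MIR2938, and the PePr p-values of the 7 ran from 8.3e-26 at MIR402 to 1.5e-09 at MIR2938.

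Of the 326 genes 89 overlapped a protein-coding gene. Of these 14 were bound in replicate 1 (15.7%), 20 in replicate 2 (22.5%), 12 in the PePr list (13.5%) and 7 in the genomic list (7.87%). Of the 237 others the numbers were 29 (12.2%), 49 (20.7%), 45 (19.0%) and 16 (6.75%). For 17 of the 23 genes of the genomic list the peak also overlapped a protein-coding gene (73.9%, against 83.9% of all peaks of that list), and for 32 of 57 in the PePr list (56.1%, against 77.7%). These differences were not tested.

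Binding was scattered within families and in no family with 3 or more genes were all of them bound in any list. Of the 21 families of that size, 8 had a bound gene in replicate 1, 12 in replicate 2, 10 in the PePr list and 4 in the genomic list. Over the 4 lists, 41, 59, 49 and 22 of all 215 families had at least 1 bound gene, and MIR156 was the only family with more than 1 gene in the genomic list. Genes that are the sole member of their family made up 15 of the 23 genes of the genomic list (9.04% of 166), and genes of families with 3 or more made up 5 (4.81% of 104). In replicate 1 these shares were 17.5% and 9.62%, in replicate 2 23.5% and 18.3%, and in the PePr list 18.7% and 13.5%. The 56 genes of families with 2 members did not fall between them throughout, at 7.14%, 19.6%, 21.4% and 5.36% in the replicate 1, replicate 2, PePr and genomic lists. Over all microRNA genes the shares were 13.2%, 21.2%, 17.5% and 7.06%, and the differences by family size were not tested.

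**Figure D4:**
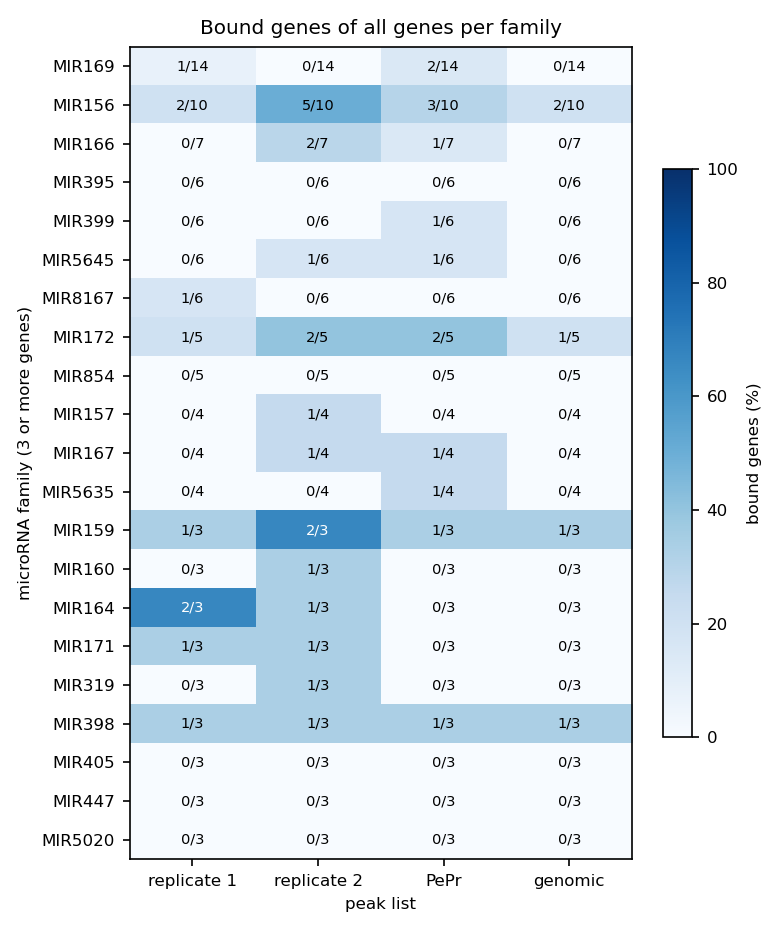
Number of bound genes of all genes in each microRNA family with 3 or more members, by peak list, with the shade giving the percent bound. MIR156, MIR172, MIR159 and MIR398 are the 4 families with a gene in the genomic list, and 5 families (MIR395, MIR854, MIR405, MIR447 and MIR5020) have none in any list.

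Families that act on developmental transcription factors had 60 genes. Of these 8 were bound in replicate 1 (13.3%) and 17 in replicate 2 (28.3%, exact 95% interval 17.5 to 41.4). In the PePr list 11 were bound (18.3%) and in the genomic list 4 (6.67%). The shares of all microRNA genes were 13.2%, 21.2%, 17.5% and 7.06%, and the replicate 2 interval includes 21.2%. The MIR156 family, which delays the adult phase by repressing SPL factors, had 5 of its 10 genes bound in replicate 2: MIR156b, MIR156c, MIR156d, MIR156h and MIR156j. The exact 95% interval for 5 of 10, 18.7 to 81.3, also includes 21.2%. In replicate 1 only MIR156h and MIR156j were bound, and in the PePr list MIR156c joined these. The related MIR157 family had 1 of 4 genes bound, MIR157d, in replicate 2 alone. MIR156a, MIR156e, MIR156f, MIR156g and MIR156i were bound in no list.

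MIR159, with its relative MIR319 that acts on TCP factors of leaf shape, had 3 of 6 genes bound in replicate 2 (MIR159a, MIR159b and MIR319a), and of these MIR159a alone in the other lists. MIR164, which acts on the boundary genes CUC1 and CUC2, had MIR164a and MIR164b bound in replicate 1 and MIR164b in replicate 2, where MIR164b scored 3100 and 169.97. Neither was bound in the PePr list, and MIR164c was bound in none. The interval for 2 of 3 genes in replicate 1, 9.43 to 99.2, includes the 13.2% of all microRNA genes. The MIR165 and MIR166 genes, which restrict HD-ZIP III factors of leaf polarity, had 3 of 9 bound in replicate 2 (MIR165a, MIR166a and MIR166b). In the PePr list 2 were bound (MIR165a and MIR166a) and in replicate 1 none. The replicate 2 interval, 7.49 to 70.1, includes 21.2%. A count of 0 of 9 in replicate 1 allows up to 33.6%, which includes the 13.2% of all microRNA genes. MIR171c was bound in replicate 1 and MIR171a in replicate 2, so that MIR171, which acts on GRAS regulators, had no gene in both lists. MIR394b was bound in replicate 2 alone and MIR396a in the PePr list alone, while MIR824 and MIR170 were bound in none.

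MIR169 was the largest family, with 14 genes at 8 loci. It acts on NF-YA subunits, and MIR169a was bound in replicate 1 and MIR169f and MIR169g in the PePr list, with none in replicate 2 or the genomic list. The run of 6 neighbouring genes from MIR169i to MIR169n had no peak in any list. These are shares of 7.14% in replicate 1 and 14.3% in the PePr list, against 13.2% and 17.5% of all microRNA genes. A count of 0 of 14 allows a share of up to 23.2% by the exact interval, which includes the 21.2% of all microRNA genes in replicate 2.

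Families with roles in auxin signalling had 11 genes and none in the replicate 1 or genomic lists. MIR160a and MIR167a, from families that act on auxin response factors, were bound in replicate 2, and MIR167a and MIR393a, of the family that acts on the receptors TIR1 and AFB, in the PePr list. MIR390a and MIR390b, which start the TAS3 pathway, were bound in none. With 11 genes, a count of 0 allows up to 28.5% by the exact interval, so no difference from the background of the replicate 1 or genomic list was detectable.

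Families that answer to nutrients had 20 genes, of which 1 was bound in replicate 1, 3 in replicate 2 (15.0%), 2 in the PePr list (10.0%) and 1 in the genomic list. None of the 6 genes of MIR395, which acts in sulfate assimilation and stands as 2 groups of neighbouring copies, had a peak in any list. A count of 0 of 6 allows a share of up to 45.9% by the exact interval. Of the 6 genes of MIR399, which acts on PHO2 in phosphate supply, MIR399b alone was bound, in the PePr list (16.7%, 0.421 to 64.1). MIR398b was bound in every list, and MIR398a and MIR398c in none, although MIR398c lies within 10 kb of MIR398b. MIR827, another phosphate-responsive gene, was bound in replicate 2, as was MIR408 of copper supply, of which 2.75% lay under the peak, whereas MIR397a, MIR397b and MIR857 were bound in none.

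Families that act on the small RNA pathway itself had 7 genes, of which 1 was bound in replicate 1 and 4 each in replicate 2 and the PePr list (57.1%, exact 95% interval 18.4 to 90.1). That interval includes the shares of other genes of the same length range, 20.1% in replicate 2 and 28.0% in the PePr list, and the 21.2% of all microRNA genes in replicate 2, while the 17.5% of all microRNA genes in the PePr list lies just below it. Besides the MIR168 genes these were MIR173, which starts the TAS1 and TAS2 pathways, and MIR828, which starts that of TAS4. MIR162a and MIR162b, which act on DCL1, and MIR403, which acts on AGO2, were bound in none of the lists. A last group of 8 genes, from families listed as young, had 3 bound in replicate 1 (MIR161, MIR163 and MIR858a) and 5 in replicate 2. In the PePr list 4 were bound and in the genomic list 2. The shares were 37.5%, 62.5%, 50.0% and 25.0%, against 13.2%, 21.2%, 17.5% and 7.06% of all microRNA genes. The exact 95% interval in replicate 2, 24.5 to 91.5, lies just above 21.2%, and the other intervals include the share of their list. The 8 genes stand at 6 loci, and the difference was not tested. The other bound genes of this group were MIR400 and MIR845a in replicate 2 and MIR400 and MIR858b in the PePr list.

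All 106 genes of the listed families were bound at 12.3% in replicate 1, 29.2% in replicate 2, 21.7% in the PePr list and 7.55% in the genomic list. The other 220 genes were bound at 13.6%, 17.3%, 15.5% and 6.82%. In replicate 2 the exact 95% intervals were 20.8 to 38.9 and 12.5 to 22.9 and overlapped slightly. The difference was not tested, and neighbouring copies share peaks.

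Genes within 10 kb of another microRNA gene formed 32 groups with 79 genes, and of these groups 4 held a bound gene in replicate 1, 7 in replicate 2, 7 in the PePr list and 3 in the genomic list. Over all 279 loci, with such groups counted once, the shares with a bound gene were 14.7%, 23.3%, 19.0% and 7.89%. No difference between the groups and all loci was tested. MIR5022 and MIR4227 formed the only group with more than 1 gene in the genomic list. MIR859, MIR774a and MIR774b lay under 1 replicate 2 peak with a score of 2178, and MIR400 and MIR5654 under another with a score of 2093. MIR5998a and MIR5998b shared 1 PePr peak and were bound in no other list.

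Some genes lay under a high-scoring peak of 1 replicate list and under none of the other. The 10 genes of replicate 1 that replicate 2 lacked included 5 with a score of 3100 in the authors' deposited list: MIR8166, MIR171c, MIR1888b, MIR164a and MIR8167f. Of all replicate 1 peaks 29.4% scored 3100 or more. The 5 peaks were centred 1653.5 bp from the centre of MIR171c, 2010.0 bp from MIR8166, 2392.5 bp from MIR164a, 2425.5 bp from MIR1888b and 5051 bp from MIR8167f. Of MIR1888b 3.70% lay under the peak, and the peak over MIR8167f was wide, from 23992012 to 24002438 of chromosome 5, and held 5 protein-coding genes. The replicate 2 list had 36 genes that replicate 1 lacked. The highest scores were 3100 at MIR822 and MIR408, whose peaks were centred 267.5 and 2798.5 bp from the gene, followed by the peak of MIR859, MIR774a and MIR774b and by MIR172d at 2152. MIR8166 lay 29 bp from a replicate 2 peak, nearer than any other gene that replicate 2 left out.

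A further 10 genes were bound in both replicate lists but not in the PePr list: MIR837, MIR163, MIR835, MIR775, MIR779, MIR844, MIR825, MIR5633, MIR164b and MIR420. For 9 of them a PePr peak lay within 500 bp, from 10 bp at MIR825 to 358 bp at MIR835, and for MIR163, which acts on methyltransferase messages, the nearest was 1905 bp away. MIR775, which acts on a galactosyltransferase gene of the cell wall, scored 3100 in both replicate lists (29421243 to 29422810 of chromosome 1 in replicate 1) and a PePr peak 42 bp from it. At the low end MIR825 had scores of 742 and 89.49 and MIR5633 of 782 and 97.32.

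The scores at microRNA genes were spread over the range of each list. In replicate 1 the median was 1670 for the 43 genes and 1772 for all peaks, and in replicate 2 it was 871 for the 69 genes and 571 for all peaks. The median PePr p-value was 1.2e-14 for the 57 genes and 5.5e-09 for all peaks, and the peaks were also wider, with a median of 850 bp against 510 bp. A wide peak is more likely to touch a gene than a narrow one, so these medians are not a measure of binding at microRNA genes. Of the 23 genes of the genomic list 11 reached 3100 in the replicate 1 list and 8 in the replicate 2 list, and the lowest scores were 771 at MIR398b in replicate 1 and 168.36 at MIR858a in replicate 2.

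**Figure D5:**
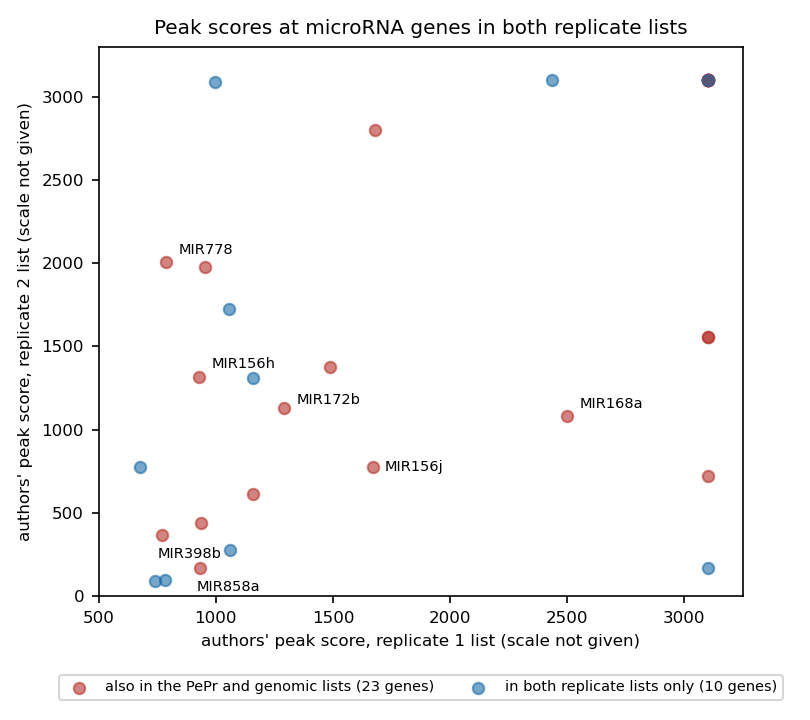
Authors' peak scores (scale not given) in the replicate 1 list (horizontal axis) and the replicate 2 list (vertical axis) at the 33 microRNA genes bound in both, 23 of them also in the PePr and genomic lists (red) and 10 not (blue). Genes at 3100 on both axes lie on top of each other, MIR168a stands at 2500.05 and 1081, and MIR398b and MIR858a are among the lowest.

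Genes of the proteins that make and use microRNAs were looked at by the same rule. Of 12 genes that process the precursors, 5 were bound in replicate 1 (41.7%), 8 in replicate 2 (66.7%), 12 in the PePr list (100%) and 5 in the genomic list (41.7%). The shares of all protein-coding genes were 22.0%, 37.4%, 61.0% and 17.2%. The 12 genes are from 2467 bp (CBP20) to 8107 bp (DCL1) long. The background was not matched for length, and the differences were not tested. The 5 of the genomic list were HYL1, the double-stranded RNA-binding partner of DCL1 (3137011 to 3138030 of chromosome 1), CDC5 (3161151 to 3162340 of chromosome 1), DDL (7177741 to 7178420 of chromosome 3), CPL1 (11510871 to 11511890 of chromosome 4) and the cap-binding protein gene CBP20 (17803306 to 17804780 of chromosome 5). HYL1 scored 3100 in both replicate lists, with a PePr p-value of 5.4e-57. DCL1, HEN1, HST and ABH1 had a PePr peak only. Of 7 genes of effectors and turnover, 1 was bound in replicate 1, 4 in replicate 2 (57.1%), 6 in the PePr list (85.7%) and 1 in the genomic list. The last was AGO1 (17892161 to 17893010 of chromosome 1), where the replicate peaks scored 1218 and 443 and the PePr p-value was 1.1e-14. Of 6 genes of other small RNA pathways none was bound in the replicate or genomic lists, while DCL4 and SGS3 had a PePr peak.

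Of 57 genes that the listed families act on, 11 were bound in replicate 1 (19.3%), 28 in replicate 2 (49.1%), 43 in the PePr list (75.4%) and 8 in the genomic list (14.0%). The genomic list share was near the 17.2% of protein-coding genes. The shares in replicate 2 and in the PePr list were above the 37.4% and 61.0% of protein-coding genes. That background was not matched for length, and the difference was not tested. The list holds 4 non-coding TAS genes, and it was put together with earlier results of these data known. The 8 genes were SPL9, TCP2, ARF6, ATHB-8, GRF2, GRF3, CCS and TAS1C.

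Set side by side, a family and its targets were bound in various combinations. MIR168a and its target AGO1 were both in the genomic list, as were MIR398b and CCS, the copper chaperone of superoxide dismutase, with scores of 1920 and 203 for CCS. The other 2 listed MIR398 targets, the superoxide dismutase genes CSD1 and CSD2, were bound in no list. MIR159a was bound in every list, while its targets MYB33 and MYB65 had a PePr peak only. MIR172b was bound in every list. Of its 5 listed AP2-like targets SNZ was bound in the replicate 1, replicate 2 and PePr lists, SMZ in replicate 2 alone, and AP2, TOE1 and TOE2 in the PePr list alone, and none was in the genomic list. Of the MIR396 genes MIR396a had a PePr peak and neither had a peak in the replicate lists. Of their 3 listed targets GRF2 and GRF3 were bound in all lists and GRF1 in none. All 5 TCP targets of MIR319 were bound in replicate 2, and of the 3 MIR319 genes MIR319a was. No test was made of whether binding at a family and at its targets goes together.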

How the data were processed

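The 4 peak lists were analysed as the authors deposited them, without headers. Per the submitters' processing notes, Bowtie2 2.2.2, MACS, bedtools and SAMtools were used on TAIR9 or TAIR10; which tool did what, the build of a list, thresholds and controls are not stated there, and PePr appears only in a list's name. The intersection of the other 3 lists gave the 4995 intervals of the genomic list exactly. The replicate lists hold a score per peak, deposited by the authors with no scale, and the PePr list a p-value per peak that the authors deposited; both were used only within a list. Starts were counted from 1. Gene names, classes and the placing of peaks came from a RefSeq table of release TAIR10.1, and none of its coordinates are printed. Read depth is not given.

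Overlaps, shares of windows and exact 95% intervals were computed in Python 3.11.15 with pandas 2.3.3 and scipy 1.17.1, and the overlap routines were tested on simulated intervals. Families were taken from the number in the symbol, and 36 families were listed by role. No test was run, since each group had 1 library. All genes of the genomic list were named, with families by role, up to 4 genes bound in 1 replicate list by score (more where tied) and pathway and target genes of the genomic list; other genes named were chosen after their values were seen. The members and lists were chosen with earlier results of these data known. The alternatives were other overlap rules, stronger peaks, merged loci and subsets of genes.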

Additional observations from a re-analysis of the deposited data

How the results depend on the processing

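The counts of bound genes and families were recomputed under 44 alternatives, of which 28 stayed within 1.5 times the reported count and 16 did not. Requiring a peak centre within 500 bp left 21 genes in replicate 1 and gave 91 in the PePr list. Accepting any peak within 500 bp gave 129 genes and 100 families in the PePr list and 38 genes and 36 families in the genomic list. The 50% of peaks with the stronger values (genomic list peaks ranked by their replicate peaks) left 20, 41 and 13 genes in the replicate 1, replicate 2 and genomic lists, and 19, 35 and 13 families. The listed families alone held 13, 31, 23 and 8 bound genes in the replicate 1, replicate 2, PePr and genomic lists, by construction, since they hold fewer genes. Requiring 50% of the gene under a peak, counting genes within 10 kb once and leaving out genes that overlap a protein-coding gene moved no count by over 1.5 times. Joining related families by name was chosen after seeing the data, since joining by seed and the search for motifs were not run without sequences. No paired analysis was possible because each group had 1 library and the lists carry no replicate shared between groups. Read depth is not given, and with 23 genes in the genomic list only large differences between families could show.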
